A study of Mus musculus with 24 samples.

Results

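The genes described here carry the DNA damage response signal of meiotic prophase: Atr, Atrip, Topbp1, Rad1, H2afx, Mdc1, Rnf8, Brca1, Hormad1 and Hormad2. They were chosen by name, as the rows of a gene count table whose Ensembl identifier has one of these 10 symbols, and all of them were found among 55536 genes. Messenger RNA was counted in germ cells of male mice on a C57BL/6J background, aged 10 to 15 weeks, that carried both, 1 or no intact copy of the Argonaute cluster Ago4, Ago1 and Ago3 (Ago413+/+, wild-type; Ago413+/-, heterozygous; Ago413-/-, null). The deleted allele was made with the MICER system, is constitutive, and takes all of Ago1 and parts of Ago3 and Ago4. It was made in embryonic stem cells of another strain and later crossed onto C57BL/6, and every cell of the animal carries it, not the germ line alone. Cells of 2 to 5 mice were pooled for a preparation and separated by gravity in an albumin gradient into a pachytene/diplotene spermatocyte fraction (SP) and a round spermatid fraction (RS), which are enriched and not pure. Spermatocytes gave 4 libraries from the wild type, 3 from the heterozygote and 3 from the null, and round spermatids gave 3, 4 and 4 in that order, not counting those whose labels call them outliers. Total counts were 12825105 to 29749058 a library. In such bulk samples fewer cells of a type and less RNA per cell cannot be told apart.

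In meiosis, programmed DNA breaks and unpaired chromosome axes are marked by a kinase cascade. The HORMA domain proteins HORMAD1 and HORMAD2 coat axes that have not synapsed and help to bring in the kinase ATR with its partner ATRIP, which is activated by TOPBP1 and by the 9-1-1 clamp that contains RAD1. ATR phosphorylates the histone variant H2AX, and its reader MDC1 carries this mark, γH2AX, from the axes into the chromatin loops of the X and Y chromosomes, where the ubiquitin ligase RNF8 acts next, while BRCA1 works upstream on the axes. This cascade is best known in the male for the sex body, the silenced X and Y domain of pachytene spermatocytes.

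The members lie on 5 chromosomes (GRCm38, positions counted from 1). Atr (ENSMUSG00000032409, chr9:95857597-95951781, forward strand), Atrip (ENSMUSG00000025646, chr9:109057933-109074124, reverse strand), Topbp1 (ENSMUSG00000032555, chr9:103305215-103350428, forward strand) and H2afx (ENSMUSG00000049932, chr9:44334694-44336077, forward strand) share chromosome 9. Mdc1 (ENSMUSG00000061607, chr17:35841515-35859670, forward strand) and Rnf8 (ENSMUSG00000090083, chr17:29614790-29644991, forward strand) lie on chromosome 17, and Brca1 (ENSMUSG00000017146, chr11:101488764-101551955, reverse strand) and Hormad2 (ENSMUSG00000020419, chr11:4345814-4441105, reverse strand) on chromosome 11. Rad1 (ENSMUSG00000022248, chr15:10486018-10499063, forward strand) and Hormad1 (ENSMUSG00000028109, chr3:95559677-95587671, forward strand) stand alone on theirs. A gene of the same strand, Trex1, takes up 16.0% of the exon bases of Atrip, and Gm28043 takes up 13.2% of those of Rnf8. Reads that fall on such shared bases are not counted for either gene by the counting option used, so the levels of Atrip and Rnf8 are uncertain to that extent. On the opposite strand, 1700065D16Rik and Gm16794 cover 3.07% and 1.96% of the exon bases of Atr, and the microRNA gene Gm44335 covers 10.2% of those of H2afx. The libraries kept strand, but the strand setting of the counting is not stated in the sources used here, so reads of these partners cannot be told apart. Of the members, Atr and Hormad1 are in the study's list of leptotene/zygotene marker genes and Mdc1 is in its pachytene list.

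RefSeq promoter windows (GRCm38.p6, 250 bases before to 50 after the start) were at hand for 9 of the members, and they were searched on both strands for a motif of the E2F type (GGCGGGAA), the E-box CACGTG, the CRE core TGACGT and a motif of the NRF1 type (GCANGCGC). These motifs were chosen after the windows had been read. Hormad1 is shown because its window held the most matches, 1 E2F-type, 2 E-box and 2 overlapping NRF1-type matches, and Brca1 because its level ran against the other members and its window held 2 CRE cores. Capitals mark the matches, which are a description of letters and not of bound sites.
Hormad1, chr3:95559427-95559726, forward strand: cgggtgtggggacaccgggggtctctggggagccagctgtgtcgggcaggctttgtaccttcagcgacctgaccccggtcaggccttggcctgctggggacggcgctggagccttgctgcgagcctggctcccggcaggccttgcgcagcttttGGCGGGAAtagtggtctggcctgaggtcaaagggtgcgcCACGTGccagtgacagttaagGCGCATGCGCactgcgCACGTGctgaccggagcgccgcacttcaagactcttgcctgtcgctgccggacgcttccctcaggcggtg
Brca1, chr11:101551906-101552205, reverse strand: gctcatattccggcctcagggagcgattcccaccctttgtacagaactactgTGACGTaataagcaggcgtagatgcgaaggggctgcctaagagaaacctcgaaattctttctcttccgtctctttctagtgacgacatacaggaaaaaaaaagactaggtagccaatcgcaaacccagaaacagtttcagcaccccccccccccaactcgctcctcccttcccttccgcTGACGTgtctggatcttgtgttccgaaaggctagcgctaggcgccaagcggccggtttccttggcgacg
Over 27025 promoters of the same length, 2.24% held the E2F-type motif, 7.24% the E-box, 7.64% the CRE core and 9.87% the NRF1-type motif. Mdc1 and Rnf8 also held 1 E2F-type match each, Mdc1 and Atrip 1 CRE core each, and Rnf8 1 NRF1-type match. Atr, Topbp1, Rad1 and Hormad2 held none of these letters in the window.

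The targeted genes were read first as a check of the labels, in CPM (counts divided by library size, with TMM scaling). Their levels were scaled over all 24 libraries. Ago1 had 0 counts in all 7 null libraries against 3.0 to 4.27 CPM in wild-type spermatocytes and 2.77 to 4.47 CPM in wild-type round spermatids, while counts assigned to Ago3 were higher in the null (39.2 to 86.6 against 4.91 to 11.3 CPM in spermatocytes). Ago4 read 9.76 to 16.1 CPM in null and 16.8 to 46.8 CPM in wild-type spermatocytes. In the heterozygote Ago1 (1.71 to 3.89 CPM in spermatocytes) overlapped the wild type, so it does not check that label, while Ago3 (12.3 to 42.4 CPM) lay above it. Marker genes were read to check the fractions. Wild-type spermatocyte libraries held 252 to 842 CPM of the pachytene markers Psma8 and Piwil1 summed against 142 to 261 in round spermatids, and 1230.1 to 3049.5 CPM of the late spermatid genes Tnp1 and Prm1 against 8121 to 11244. The late spermatid sums parted the fractions in the wild type. The pachytene sums overlapped, through spermatocyte replicate 5 and round spermatid replicate 1 in the wild type, and also in the heterozygote (134 to 379 and 105 to 218 CPM) and the null (113 to 309 and 79.8 to 175 CPM). Of 18 markers of Sertoli, Leydig, peritubular, macrophage and red blood cells 17 were detected, summing to 122 to 302 CPM in wild-type and 77.2 to 132 CPM in null spermatocytes, most of it Clu. The 3 libraries labelled outliers were likewise read in CPM scaled over all 24 libraries. Replicate 3 of the libraries labelled wild-type round spermatids held 848 CPM of Tnp1 and 928 CPM of Prm1, below the other round spermatid libraries, with 207 CPM of Atr and 23.4 CPM of Brca1. Those labelled wild-type spermatocyte replicate 3 and heterozygous spermatocyte replicate 4 held 99 and 45.8 CPM of Piwil1, where the other wild-type and heterozygous spermatocyte libraries held 176 to 655 and 91.2 to 305 CPM and null ones 72 to 234 CPM, and 19.3 and 13.6 CPM of Hormad1. Their Tnp1 (2403 and 2597 CPM) and Prm1 (2716 and 2686 CPM) were above every spermatocyte library that was kept. The Piwil1 level of the first of these lay within the range of the null libraries that were kept. For null against wild-type in both fractions, heterozygous against wild-type spermatocytes, and the fractions in the wild type and the null, directions that turned when these 3 were put back are given with both values.

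Set per length of the longest coding transcript, the members spanned a wide range of levels in wild-type spermatocytes. Hormad1 was highest at 43.5 ± 18 CPM per kb (SD, n = 4), followed by Atr at 36.7 ± 13.8, Mdc1 at 26.2 ± 10.0 and H2afx at 26 ± 7.95. The ranges of mean ± SD of these 4 overlapped. Topbp1 (8.36), Hormad2 (4.58) and Atrip (3.55 CPM per kb) came next. Rad1 (1.79), Brca1 (1.37) and Rnf8 (0.784 CPM per kb) were lowest, and Rnf8 rested on 49 to 127 counts in these libraries. With all annotated exon bases as the length, Atr ranked 4 and not 2. In wild-type round spermatids Mdc1 was highest (17.3 ± 2.54 CPM per kb, SD, n = 3) and Atr ranked 4. H2afx came next to Mdc1 at 16.4 ± 3.92 CPM per kb, and their ranges of mean ± SD overlapped. Over the 6 groups, 9 of the members had their highest mean in wild-type spermatocytes, and Brca1 had its highest mean in null spermatocytes.

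**Figure D1:**
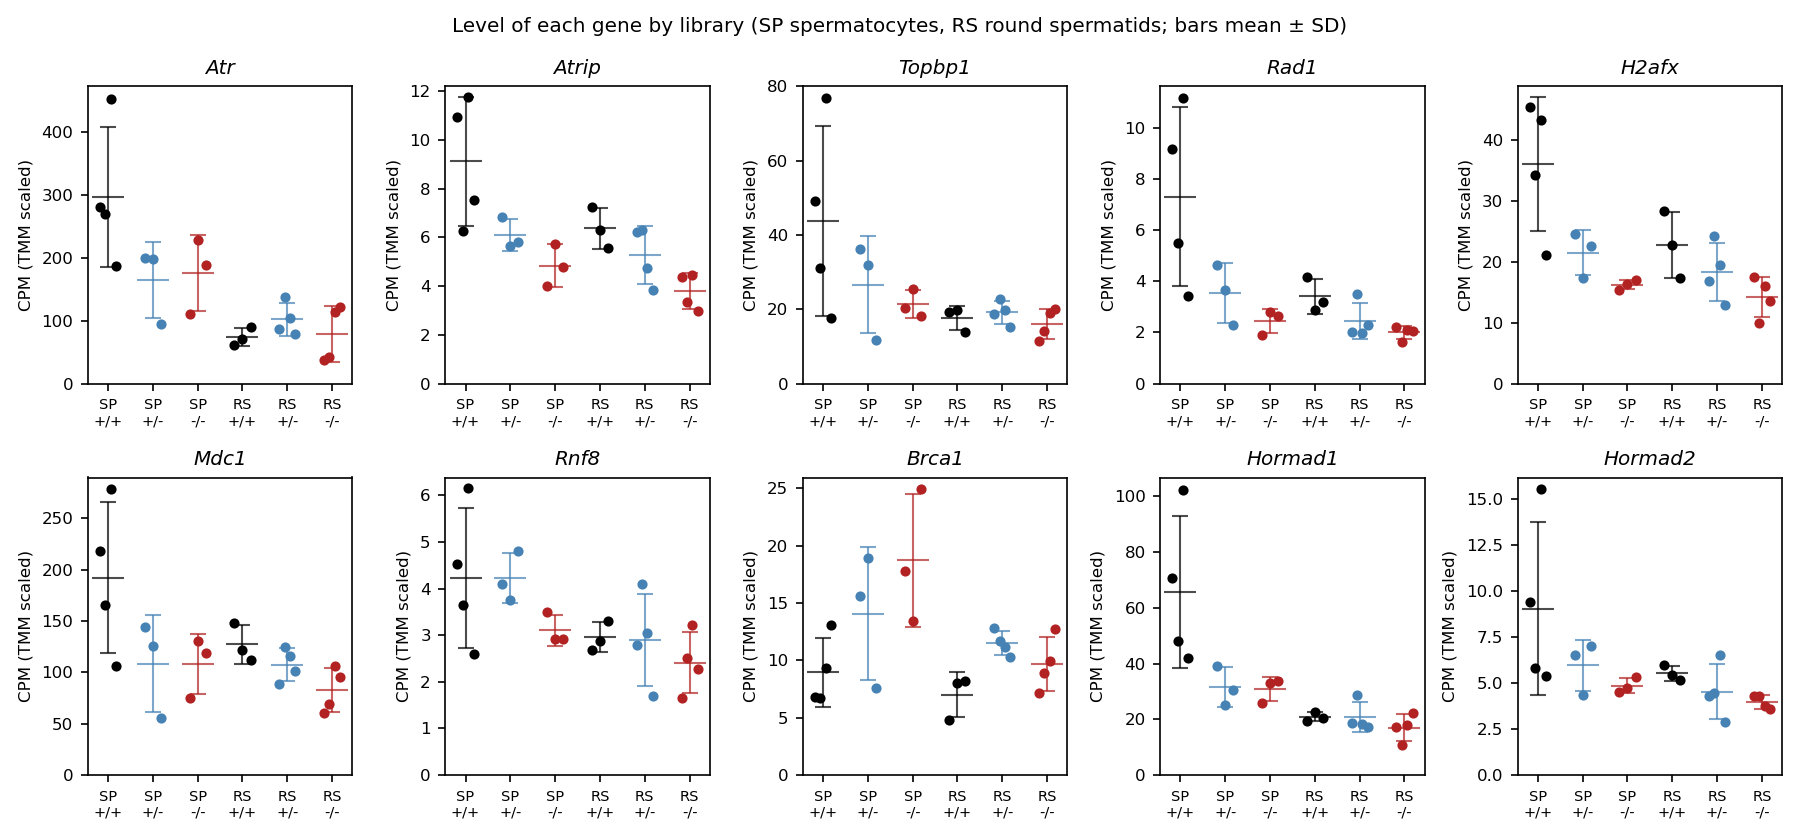
CPM of each of the 10 genes (vertical axes from 0, a scale for each gene) in every library of the 6 groups, with points for libraries and bars for mean ± SD. Wild-type spermatocytes have the highest mean and the widest spread for 9 genes, and Brca1 is highest in null spermatocytes.

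The comparison of null with wild-type spermatocytes addresses whether loss of the Argonaute cluster goes with other levels of meiotic transcripts. Values of wild-type spermatocytes are given in the order of replicates 1, 2, 4 and 5, and those of the other groups in the order of their replicates. Of the ATR arm, the kinase gene Atr read 281, 269.8, 453 and 187 CPM in wild-type and 110.1, 229 and 189 CPM in null spermatocytes. The groups overlapped, and the estimated log2 fold change by edgeR was -0.74 (SE 0.32, adjusted p = 0.145). Atrip, the partner that holds ATR on coated single-stranded DNA, read 10.9, 6.25, 11.8 and 7.53 CPM in the wild type and 4.0, 5.75 and 4.79 CPM in the null. Every null library lay below every wild-type library, and the log2 fold change was -0.89 (SE 0.27, adjusted p = 0.0681). Topbp1, the activator of ATR, read 49.3, 31.1, 76.8 and 17.6 CPM against 20.4, 25.6 and 18.3 CPM, where wild-type replicate 5 was below all null libraries (log2 fold change -0.999, SE 0.44, adjusted p = 0.146). Rad1, a subunit of the 9-1-1 clamp, read 9.16, 5.51, 11.2 and 3.42 CPM in the wild type and 1.91, 2.78 and 2.62 CPM in the null. The null libraries of Rad1 were all lower, and its log2 fold change of -1.56 (SE 0.40, adjusted p = 0.0599) was the largest of the members in size.

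Of the genes for γH2AX and its spreading, H2afx, the histone gene, read 45.3, 34.2, 43.2 and 21.1 CPM in wild-type and 15.4, 16.4 and 16.9 CPM in null spermatocytes. The groups did not overlap, and the log2 fold change was -1.12 (SE 0.25, adjusted p = 0.0599). H2afx has 1 transcript in the annotation. The libraries were made from poly(A) RNA, and forms of its RNA outside the annotation were not told apart. Mdc1 ranged over 106 to 279 CPM in the wild type and 74.8 to 130.3 CPM in the null (log2 fold change -0.81, SE 0.34, adjusted p = 0.135), and Rnf8 over 2.60 to 6.16 and 2.91 to 3.49 CPM (log2 fold change -0.42, SE 0.30, adjusted p = 0.35). Both overlapped between the genotypes. Brca1 ran the other way, with 6.80, 6.70, 9.31 and 13.1 CPM in the wild type and 17.8, 13.4 and 24.9 CPM in the null. Each null library of Brca1 was above all wild-type libraries, null replicate 2 by the narrowest margin, and the log2 fold change was 1.07 (SE 0.33, adjusted p = 0.0734).

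Of the HORMA domain genes, Hormad1 read 70.6, 48.1, 102 and 42.1 CPM in wild-type and 26, 33 and 33.8 CPM in null spermatocytes. The null libraries were all below the wild type (log2 fold change -1.06, SE 0.28, adjusted p = 0.0599). Hormad2 read 9.40, 5.80, 15.5 and 5.36 CPM against 4.52, 4.71 and 5.33 CPM. Its groups were parted narrowly, by wild-type replicate 5 against null replicate 3, and the log2 fold change was -0.87 (SE 0.35, adjusted p = 0.118).

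With edgeR, no member was called (adjusted p under 0.05, with the log2 fold change over 0.5 in size) against 0.0411% of 19450 tested genes, while 9 of the 10 had an unadjusted p under 0.05 against 30.4% of tested genes. DESeq2 called 5 against 15.6%: Brca1 higher, and Rad1, H2afx, Hormad1 and Atrip lower. The groups did not overlap for 6 members against 28.0% of tested genes. The median log2 fold change was -0.88 over the members and -0.03 over all tested genes, with 9 members below 0. Of the fits that left out 1 library, the one without wild-type replicate 4 brought these 9 nearest to 0. They then ranged from -1.23 for Rad1 to -0.13 for Rnf8, with Topbp1 at -0.53 and Hormad2 at -0.42. Wild-type replicate 5 was the lowest wild-type library for 8 members and the highest for Brca1, and without it edgeR called 8 members, all but Atr and Rnf8 (Rad1 log2 fold change -1.79, edgeR adjusted p = 0.00637; Brca1 1.33, adjusted p = 0.0175). That fit called 4526 genes over the whole table, where the fit with all libraries tested 19450 genes and called 8. Calls thus rose over the whole table and not in the members alone, and the shares were not compared by a test.

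That library is also the wild-type spermatocyte library with the least pachytene marker RNA. Psma8 and Piwil1 summed to 709.7, 413, 842 and 252 CPM in wild-type replicates 1, 2, 4 and 5, to 379, 257 and 134 CPM in the heterozygous and to 113, 309 and 213 CPM in the null libraries. Their log2 fold changes in the null were -1.19 (edgeR adjusted p = 0.0599) and -1.43 (adjusted p = 0.0849). Round spermatid markers, all 4 of the list detected, were at 392 to 694 CPM in the wild type and 694 to 844 CPM in the null. Pou5f2 and Ccna1, markers of diplotene and dividing spermatocytes, summed to 322 to 401 CPM in the wild type and 198 to 299.7 CPM in the null, and 4 macrophage markers to 1.88 to 3.10 and 3.16 to 6.61 CPM, both without overlap. The 3 spermatogonial markers summed to 27.1 to 69.6 and 39.9 to 67.4 CPM, of which Stra8 (3.66 to 5.62 and 6.93 to 11.7) and Cenpa (1.56 to 2.57 and 3.37 to 5.26) were higher in the null without overlap and Dazl overlapped. The part of these markers in the members' values was not tested.

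The libraries carry numbers in their names, and the genotypes are spread unevenly over them. Among numbers up to 60, with 3 wild-type libraries and 1 null library of spermatocytes, 9 members were lower and Brca1 was higher in the null, with a median log2 ratio of -1.39, where all tested genes had -0.04 and 51.6% of them were lower. Above 60, with wild-type replicate 5 alone and 2 null libraries, 5 members were lower and 5 higher in the null, with a median of 0.03, where all tested genes had 0.0020 and 49.7% were lower. There Atr had a log2 ratio of 0.16, Topbp1 0.32 and Mdc1 0.23, while Atrip (-0.51), Rad1 (-0.34), H2afx (-0.34) and Hormad1 (-0.33) stayed below the wild-type library and Brca1 (0.55) above it. Each range has 1 library on a side, and the upper one sets the null against the wild-type library that was lowest for 8 members, so these ratios are given with no test.

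**Figure D2:**
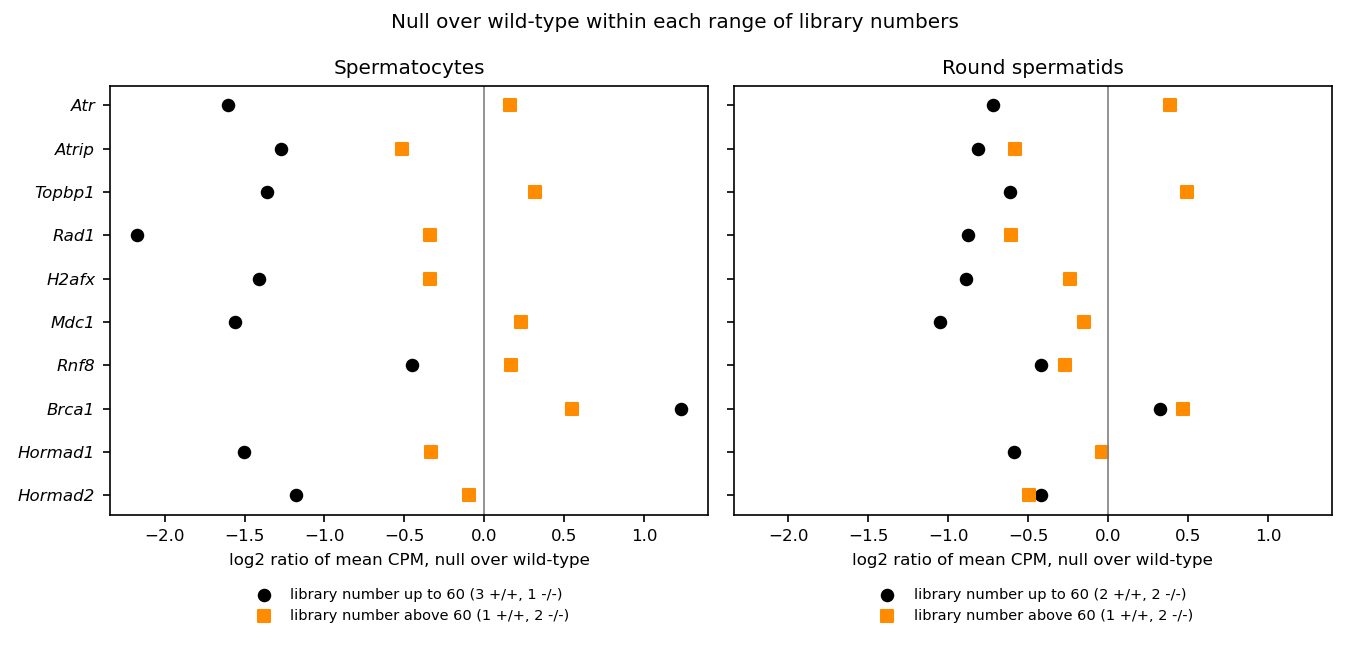
Log2 ratio of mean CPM, null over wild-type (horizontal axis), for each of the 10 genes within libraries numbered up to 60 (circles) and above 60 (squares), for spermatocytes at left and round spermatids at right. In spermatocytes the circles lie at a median of -1.39 and the squares at 0.03, and Brca1 is above 0 in all 4 sets.

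The heterozygous spermatocyte mean lay between those of the other genotypes for 9 members, and below both for Atr. This comparison shares its wild-type libraries with that of the null. Pou5f2 and Ccna1 summed to 211 to 269.7 CPM in the heterozygote, below the wild type without overlap, and the spermatogonial markers to 63.2 to 72.6 CPM. Of the latter, Stra8 (14.5 to 23.8 CPM) and Cenpa (4.30 to 8.67 CPM) were above the wild type without overlap, and Dazl overlapped. The part of these markers in the members' values was not tested. Hormad1 read 39.2, 25 and 30.3 CPM in the heterozygote, below every wild-type library, and its log2 fold change against wild-type was -1.01 (SE 0.28, edgeR adjusted p = 0.124). It was the 1 member whose groups did not overlap, against 17.6% of tested genes. Rad1 read 4.65, 3.66 and 2.29 CPM and H2afx 24.5, 17.3 and 22.6 CPM, both overlapping the wild type through its replicate 5. Their log2 fold changes were -0.99 (SE 0.39, adjusted p = 0.154) and -0.70 (SE 0.24, adjusted p = 0.135). Brca1 read 15.7, 18.9 and 7.63 CPM, with heterozygous replicate 3 among the wild-type libraries (log2 fold change 0.69, SE 0.34, adjusted p = 0.221). For the other members the log2 fold change was -0.80 for Atr, -0.77 for Mdc1, -0.66 for Topbp1, -0.55 for Hormad2, -0.53 for Atrip and 0.05 for Rnf8, with adjusted p of 0.158 or more. No member was called by edgeR against 0.0257% of tested genes, 5 had an unadjusted p under 0.05 against 24.6%, and DESeq2 called Hormad1 alone against 6.31%. Without wild-type replicate 5, edgeR called 3 members, Hormad1, H2afx and Rad1, and 2966 genes over the whole table against 5 with it. With the outlier libraries put back, the estimate of Rnf8 turned to -0.11. Between null and heterozygous spermatocytes no member was called by edgeR (background 0.00514%) or DESeq2 (0.0206%), and none had an unadjusted p under 0.05 (3.74% of tested genes).

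**Figure D3:**
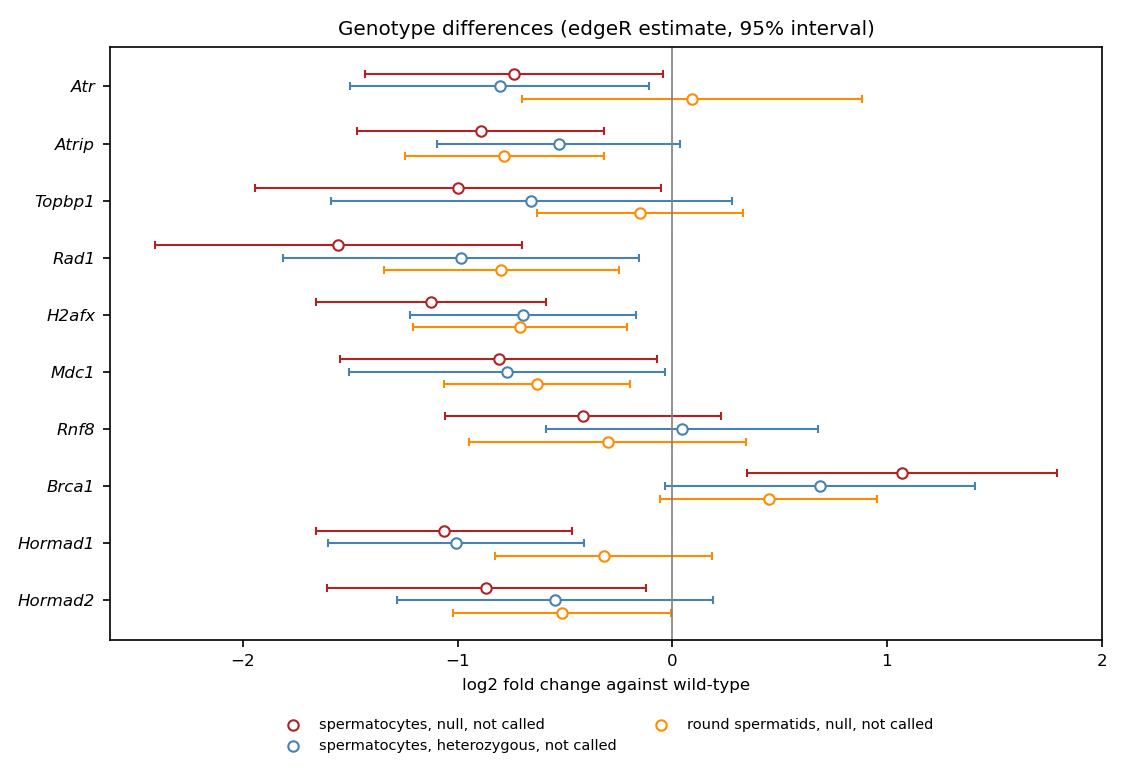
edgeR log2 fold change against wild-type (horizontal axis, 95% interval as bars) of the 10 genes in null spermatocytes, heterozygous spermatocytes and null round spermatids. All points are open because no gene was called, and Brca1 is the one gene above 0 in all 3 comparisons by more than 0.4, which in round spermatids turns to -0.20 with the outlier libraries put back.

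In round spermatids, cells past meiosis, the null had a lower estimate than the wild type for 8 of the 10 members. Atrip read 7.25, 6.29 and 5.58 CPM in the wild type (replicates 1, 2 and 4) and 4.37, 3.34, 4.48 and 2.98 CPM in the null. The null libraries of Atrip were all lower, and edgeR put the log2 fold change at -0.78 (SE 0.22, adjusted p = 0.0934). Rad1 read 4.18, 2.87 and 3.17 CPM against 2.21, 1.62, 2.10 and 2.06 CPM, again without overlap (log2 fold change -0.80, SE 0.26, adjusted p = 0.127). Mdc1 read 148, 121 and 112 CPM in the wild type and 60.8, 69.3, 106 and 95.9 CPM in the null. It too did not overlap (log2 fold change -0.63, SE 0.20, adjusted p = 0.126), nor did Hormad2 (log2 fold change -0.51, SE 0.24, adjusted p = 0.255). H2afx overlapped at 17.4 to 28.2 and 9.92 to 17.5 CPM (log2 fold change -0.71, adjusted p = 0.133). For Hormad1 (-0.32), Rnf8 (-0.30), Topbp1 (-0.15), Atr (0.09) and Brca1 (0.45) the adjusted p was 0.313 or more. With the outlier libraries put back, Atr read -0.43 and Brca1 -0.20.

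No member was called by edgeR in null round spermatids against 0.0518% of 19310 tested genes, and 5 had an unadjusted p under 0.05 against 19.3%. DESeq2 called Atrip alone against 3.64%. Groups without overlap were found for 4 members against 19.4% of tested genes. Within library numbers up to 60, with 2 libraries of each genotype, 9 members were lower in the null (median log2 ratio -0.67, all tested genes 0.07), and above 60, with 1 wild-type and 2 null libraries, 7 were lower (median -0.19, all tested genes -0.0046). Atrip had log2 ratios of -0.81 and -0.58 in these ranges and Rad1 -0.88 and -0.61, while Atr turned from -0.72 to 0.39. Pachytene markers summed to 142 to 261 CPM in wild-type and 79.8 to 175 CPM in null round spermatids. The diplotene and division markers Pou5f2 and Ccna1 summed to 251 to 309 and 185 to 206 CPM, lower in the null without overlap, and 4 macrophage markers to 2.86 to 5.15 and 6.53 to 8.88 CPM, higher without overlap. The part of these markers in the members' values was not tested. Heterozygous against wild-type round spermatids gave no call with edgeR (0.0207% of tested genes) or DESeq2 (0.0363%), with 1 member at an unadjusted p under 0.05 (8.88%). Null against heterozygous round spermatids gave none with edgeR (0.00518%) or DESeq2 (0.104%) and 2 at an unadjusted p under 0.05 (7.67%).

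Between the fractions, with the outlier libraries left out, the estimates of all members were lower in round spermatids than in spermatocytes. With them put back, Brca1 in the wild type turned to 0.16, and the members' values in the heterozygote are not given here. In the wild type edgeR called 4 of the 10, all lower, against 24.2% of 20404 tested genes. Atr read 61.1, 70.5 and 89.8 CPM in round spermatids, below each of the 4 spermatocyte libraries given above, and fell by 2.01 on the log2 scale (SE 0.40, adjusted p = 0.0012). Hormad1 read 19.5, 22.7 and 20.6 CPM, also without overlap, and fell by 1.65 (SE 0.28, adjusted p = 0.000548). Topbp1 fell by 1.31 (SE 0.38, adjusted p = 0.014) and Rad1 by 1.10 (SE 0.33, adjusted p = 0.0188), both overlapping through spermatocyte replicate 5. The log2 fold change of the other members was -0.70 for Hormad2, -0.66 for H2afx, -0.60 for Mdc1, -0.52 for Rnf8, -0.52 for Atrip and -0.37 for Brca1, with adjusted p from 0.058 to 0.393. DESeq2 added H2afx, for 5 calls against 26.7%. Groups did not overlap for 2 members, Atr and Hormad1, against 33.7% of tested genes. The 4 calls became 7 without spermatocyte replicate 5, 2 without spermatocyte replicate 4 or round spermatid replicate 4, and 0 with the outlier libraries put back. Over the whole table the 4934 calls became 6398, 3394, 3669 and 0 in these fits. Atr and Hormad1 were called in all 7 fits that left out 1 library. The labels do not say which libraries of the fractions share a preparation, so the main fit did not pair them. With consecutive library numbers as a block edgeR called 7 members, and 4931 genes over the whole table.

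In the null, 3 members fell between the fractions by edgeR against 17.1% of tested genes: Atr by 1.16 (SE 0.37, adjusted p = 0.0334), Brca1 by 0.95 (SE 0.29, adjusted p = 0.0267) and Hormad1 by 0.86 (SE 0.27, adjusted p = 0.0284). Brca1 read 7.15, 8.93, 9.92 and 12.8 CPM in null round spermatids, below all null spermatocyte libraries. Groups did not overlap for 3 members, Brca1, Hormad1 and Hormad2, against 29.7% of tested genes, while Atr overlapped. DESeq2 called the same 3 genes as edgeR, Atr, Brca1 and Hormad1, against 19.9%. These calls were lost without spermatocyte null replicate 3, round spermatid null replicate 1 or round spermatid null replicate 2, 1 was left without spermatocyte null replicate 2, and 0 with the outlier libraries put back. Over the whole table these fits called 1248, 2164, 2392, 2187 and 2275 genes, against 3498 with the libraries as used. In the heterozygote no member was called by edgeR (8.89%) or DESeq2 (11.2%), and 1 had an unadjusted p under 0.05 (23.6%). With the outlier libraries left out, all 10 had a negative log2 fold change in each genotype, the nearest to 0 being Mdc1 in the heterozygote at -0.014, with medians of -0.68 in the wild type, -0.43 in the heterozygote and -0.37 in the null, where all tested genes had 0.02, -0.06 and -0.0015.

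**Figure D4:**
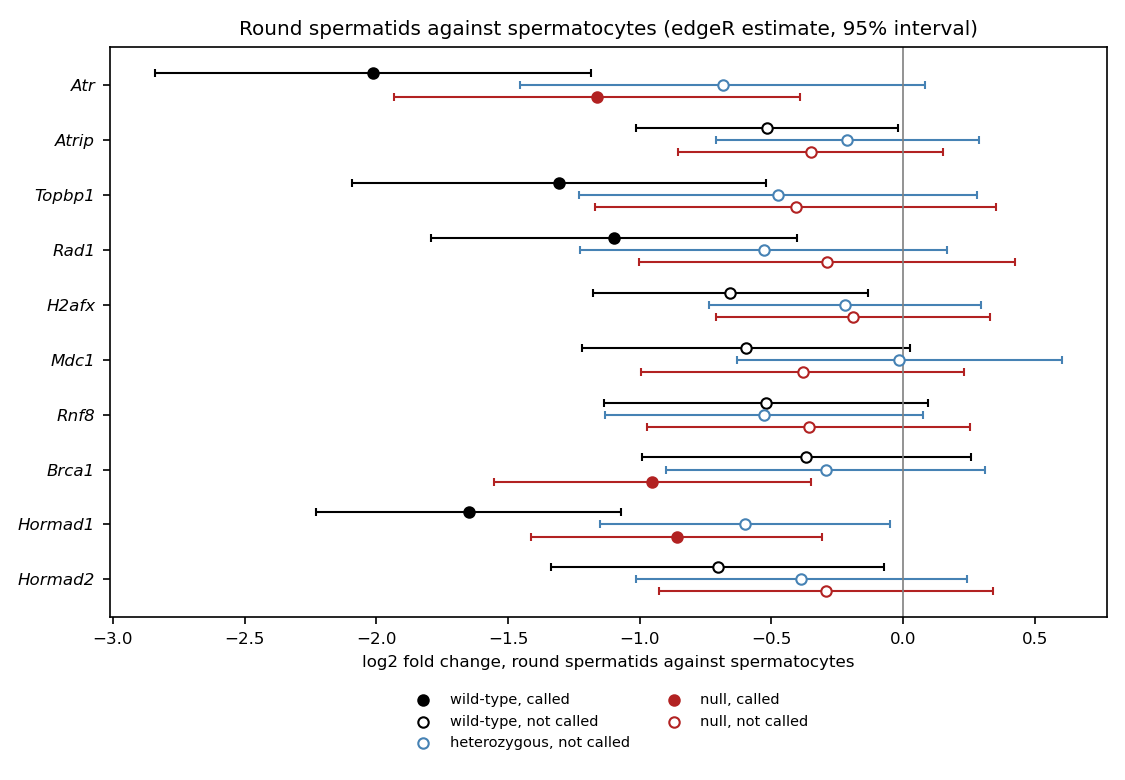
edgeR log2 fold change of round spermatids against spermatocytes (horizontal axis, 95% interval as bars) of the 10 genes in each genotype, filled where called. Atr and Hormad1 are filled in the wild type and the null, and all points lie below 0 with the outlier libraries left out.

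Whether a genotype difference itself differed between the fractions was tested by an interaction term. For null against wild-type no member was called by edgeR or DESeq2 (backgrounds 0.0% and 0.0%), and 1, Hormad1, had an unadjusted p under 0.05 against 5.95% of tested genes. For heterozygous against wild-type no member was called by either tool (backgrounds 0.0% and 0.0%), and 2, Atr and Hormad1, had an unadjusted p under 0.05 against 7.72%. The differences between spermatocytes and round spermatids in the genotype values above are thus not shown to be more than the spread between libraries.

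Another 40 genes of the pathway were listed by function. In null against wild-type spermatocytes 39 were tested, edgeR called none, and the median log2 fold change was 0.03, with 21 above and 18 below 0, and 11 had an unadjusted p under 0.05 against 30.4% of all tested genes. DESeq2 called 4 of them, no larger a share than its background above. These were Chek1, the kinase downstream of ATR, at 0.90 (DESeq2 adjusted p = 0.00928), Brip1, a helicase that binds BRCA1, at 0.83 (DESeq2 adjusted p = 0.00871), the X-linked sex body gene Scml2 at 0.76 (DESeq2 adjusted p = 0.0137), and Rpa1, the single-stranded DNA binding subunit, at -0.59 (DESeq2 adjusted p = 0.0254). By group and without a test, 8 of 9 genes of ATR activation and the 9-1-1 clamp were below 0 (median -0.62, 2 with an unadjusted p under 0.05), as were 5 of 8 of the BRCA1 complexes (median -0.28) and 2 of 4 HORMAD partners and break formation genes (median -0.13). Above 0 were 6 of 7 kinases and mediators (median 0.48, 4 with an unadjusted p under 0.05), 4 of 4 genes of the ubiquitin arm (median 0.30), 3 of 4 of break sensing (median 0.03) and 2 of 3 of sex body silencing (median 0.47). In heterozygous spermatocytes edgeR called none, 12 had an unadjusted p under 0.05 against 24.6%, and DESeq2 called 7, of which 5 were higher and 2 lower, against 6.31% of all tested genes. Of these Atm, the kinase of the first γH2AX wave, had the largest log2 fold change at 1.11 (DESeq2 adjusted p = 0.0402), then Tipin at 0.96 (DESeq2 adjusted p = 0.0388), Scml2 at 0.92 (DESeq2 adjusted p = 0.0139) and Chek1 at 0.76 (DESeq2 adjusted p = 0.0425). The 2 lower ones, named after their values were seen, were Rpa1 at -0.59 (DESeq2 adjusted p = 0.0425) and Spo11, which makes the meiotic breaks, at -0.57 (DESeq2 adjusted p = 0.0139). In null round spermatids edgeR called none, 4 had an unadjusted p under 0.05 against 19.3%, and DESeq2 called Rpa1 at -0.70 (DESeq2 adjusted p = 0.00552) against 3.64% of all tested genes.

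Between the fractions in the wild type 10 of the 40 were called by edgeR, 1 higher and 9 lower in round spermatids, a share near the background of 24.2%. Ube2n, the ubiquitin conjugating enzyme that works with RNF8, rose by 1.08 on the log2 scale (SE 0.23, adjusted p = 0.00187). Rad50, of the break sensing complex, fell by 1.26 (adjusted p = 0.00762) and Iho1 (Ccdc36 in the annotation), a partner of HORMAD1 in break formation, by 1.12 (adjusted p = 0.00101). The break sensing group had 3 of 4 genes called, all lower. In the null 8 of the 40 were called, 1 higher and 7 lower, against 17.1% of tested genes, and in the heterozygote 3, 1 higher and 2 lower, against 8.89%.

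The members did not share 1 pattern over the 6 groups. Likeness was the root mean square difference between the mean log2 CPM of the 6 groups after centring, so a small value is a close match. The closest genes of all tested were Lcorl and 2610021A01Rik to Atr (0.07 and 0.0976), Ufl1 and Fam221a to Hormad1 (0.0382 and 0.0542), Ublcp1 and Terb2 to Rad1 (0.0639 and 0.0704), and Eml6 and Tent5d to Brca1 (0.0526 and 0.0535). For the rest they were Prr7 and Tusc1 to Atrip, Iqcb1 and Zfp26 to Topbp1, Gm47286 and Aph1c to H2afx, Ncln and Tnpo2 to Mdc1, Zbtb20 and Zfp276 to Rnf8, and Chtop and 4933427E11Rik to Hormad2. Among the members themselves Atrip and H2afx were the closest pair (0.0784), and Brca1 was the farthest from any other member (0.47, to Rnf8). Group means rest on 3 or 4 libraries each, so the order of close matches is a description.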

How the data were processed

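Poly(A) RNA of the enriched fractions was made into directional libraries and sequenced in pairs. The authors trimmed the reads with Trim Galore and aligned them with STAR, whose gene counting gave the deposited table of raw counts per gene. The build in the processing notes is mm10, and versions are not given in the sources used here. Identifiers were matched to GENCODE M21.

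Groups came from the labels, and 21 of 24 libraries were used, since 3 are called outliers there. A gene was tested with 10 or more counts in 3 or more libraries. Counts were tested with edgeR 4.0.16 in R 4.3.3 (TMM scaling, quasi-likelihood fit) with Benjamini-Hochberg adjustment over all tested genes. Each fraction was fitted on its own for genotypes, and all 6 groups together for fractions and interactions. Adjusted p-values without a tool are those of edgeR. DESeq2 1.42.0, the study's tool, was an alternative, as were other scaling, no filter, only the compared groups, the outlier libraries put back, replicate blocks, the range of library numbers as a term and leaving out each library. CPM levels come from the 6-group fit, except those of Ago1, Ago3 and Ago4 and of the outlier libraries, which were scaled over all 24 libraries. All 10 members passed the filter, and all are named, by role. Other pathway genes are named if called by edgeR, or else up to 4 with the largest change called by DESeq2, and between fractions up to 3 in each direction called in the wild type, of which 1 is not reported here. The fit was tested on simulated data. The members and gene lists were chosen with earlier results of these data known. Libraries are pools of animals, and the labels do not say whether pools share animals, so p-values measure the spread between these libraries.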

Additional observations from a re-analysis of the deposited data

Results flagged for a closer look

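Of 30 sets of 4 libraries examined (10 genes in 3 groups), 1 held a library far from the others, where chance alone gives about 1 in 20. Hormad1 read 28.8 CPM in heterozygous round spermatid replicate 2 against 18.4, 18.6 and 17.4 CPM in replicates 3, 1 and 4. The same library held the most pachytene marker RNA of its group, 218 CPM of Psma8 and Piwil1 summed against 105 to 119 CPM, and the part of this in the Hormad1 value was not tested.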

How the results depend on the processing

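Counts of members called moved as follows. In null against wild-type spermatocytes edgeR called 0, DESeq2 5, edgeR without the filter on low counts 7 and edgeR on the compared groups only 4, and fits that left out 1 library called 0 to 8. Over all genes these fits called 8, 3026, 2623, 1303 and 4 to 4526. In heterozygous against wild-type spermatocytes the 0 became 1 with DESeq2, 3 without the filter, and 0 to 3 over fits that left out 1 library (all genes 5, 1228, 1481 and 3 to 2966). In null round spermatids the 0 became 1 with DESeq2 (all genes 10 and 702). Between the fractions in the wild type the 4 became 0 with the outlier libraries put back and ranged over 2 to 7 with 1 library left out (all genes 4934, 0 and 3394 to 6398). In the null the 3 became 0 with the outlier libraries put back and ranged over 0 to 3 (all genes 3498, 2275 and 1248 to 4129). In the heterozygote the 0 became 1 without the filter (all genes 1814 and 2143).

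The labels do not say whether libraries with the same replicate number share a preparation. Across genotypes, the same replicate number gave correlations of deviations from the group means over 0.1 in 4 of 7 spermatocyte pairs. In round spermatids it did so in 0 of 10 pairs. Consecutive library numbers across the fractions gave correlations of deviations over 0.1 in 8 of 9 pairs, the same replicate number in 4 of 9, and 6 of 18 libraries correlated best with the library of the consecutive number. With the replicate number of the labels as a block, null against wild-type spermatocytes gave 1 member call and the fractions in the wild type 7, and with consecutive numbers as a block the latter also gave 7 (all genes 687, 6024 and 4931). Blocking changed no other count of members called.

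Values per gene from the alternative fits were set against the main fit for the 5 comparisons whose values are printed by gene, 700 values in all. Of these 615 kept direction and side of the threshold, 46 passed it newly, 26 no longer passed it and 13 turned direction. Rnf8 in heterozygous spermatocytes read -0.11 with the outlier libraries and -0.068 with the range of library numbers as a term, and -0.13 to 0.33 with 1 library left out. Atr in null round spermatids read -0.43 with the outlier libraries, -0.15 with the replicate block, -0.17 with the range of numbers and -0.24 to 0.33 with 1 library left out. Brca1 with the outlier libraries read -0.20 in null round spermatids and 0.16 between the fractions in the wild type. The cause was not tested. The members held 28 to 9338 counts a library, and depth limits Rnf8 and Rad1 most.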
